A study of Mus musculus with 2 samples.

Results

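The Acta2-high Crabp1 wound myofibroblasts described here were the fibroblasts with the highest values of a 6-gene score in skin wounds of aged and young mice. Fibroblasts were gated as cells in which Col1a1, Col1a2 and Col3a1 together made up at least 1% of UMIs (unique molecular identifiers, 1 per captured RNA molecule) and the myeloid genes Lyz2, Tyrobp and Fcer1g together less than 0.1%. The score was the mean of ln(1 + UMIs per 10000) over Acta2, Prss35, Crabp1, Tnn, Lrrc15 and Col12a1, and the members were chosen by this score, as the top 15% of the gated cells of both libraries together. They numbered 425 of 2834 gated cells, and the gated cells were themselves a part of 8871 cells that passed quality filters. The members comprised 239 of 1362 gated aged cells and 186 of 1472 gated young cells. They are called top-score cells below, and the 1123 aged and 1286 young fibroblasts under the cut are called the other gated cells.

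The aged group was wild-type male C57BL/6 mice of 24 months and the young group wild-type male C57BL/6 mice of 2 months, and all carried a full-thickness 10 mm excisional wound on the back that was taken at day 6 and digested with collagenase and dispase. Each age was 1 droplet 3' RNA library made from several pooled mice, in a series designed to compare the senescence response of aged and young wounds. There was thus no replicate of either age, no test was possible between them, and effects of age cannot be told apart from those of the mice pooled or of how each library was prepared. All intervals are 95% intervals for counting error only. Since the score chose the cells, differences between top-score and other gated cells are given as description, and a level is a gene's share of the summed UMIs of the cells named, scaled to 1000000 UMIs (CPM).

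Myofibroblasts are fibroblasts that assemble smooth muscle actin, the product of Acta2, into contractile bundles, pull wound edges together and lay down collagen. Mechanical tension and TGF-beta, acting through the transcription factors SRF and SMAD, are known to switch on their contractile genes. Crabp1 encodes a cytoplasmic retinoic acid-binding protein found in dermal fibroblasts of the back and in hair follicle mesenchyme. Tnn (tenascin-W) and Col12a1 (a collagen that decorates fibrils) are matrix components of tissues under tension, Lrrc15 is a membrane protein of TGF-beta-activated fibroblasts and Prss35 encodes a secreted serine protease-like protein.

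The depth of the 2 libraries was similar: 107865898 UMIs over 4379 barcodes in the aged library and 111810068 over 4932 in the young. More UMIs were captured per top-score cell, with a median of 65651 UMIs in aged top-score cells and 54849 in young ones, against 48421 in aged and 41388.5 in young other gated cells. The 2 libraries shared 3 barcodes, none of them (0) a gated cell. A fibroblast marker list of 12 genes, most of whose summed level came from the gate collagens Col1a1, Col1a2 and Col3a1, took a median of 6.37% of the UMIs of aged top-score cells and 6.95% of young ones, and Pdgfra, a receptor that marks fibroblasts and was not in the gate, was detected in 221 of 239 aged and 175 of 186 young top-score cells. The 14-gene pericyte and vascular smooth muscle list matters because those cells also express Acta2. It took a median of 0.0136% of UMIs in aged and 0.0105% in young top-score cells, below 0.0222% in aged and 0.0262% in young other gated cells. Most of its summed level came from Ndufa4l2 and Steap4, both detected in many other gated cells, so its share says little of pericyte content. Ndufa4l2 was at 195 CPM in aged and 73.1 in young top-score cells, against 149 in aged and 110 in young other gated cells. Steap4 was at 60.1 CPM in aged and 65.1 in young top-score cells, against 137 in aged and 195 in young other gated cells. Of the same list, Higd1b and Pln had no UMI in top-score cells of either library. Rgs5, a defining pericyte gene, was detected in 6 of 239 aged and 3 of 186 young ones. Myh11, smooth muscle myosin, was detected in 2 aged and 2 young top-score cells. Other genes of that list stood higher in top-score cells of one or both libraries. Des (desmin) was at 4.13 CPM in aged and 4.47 in young ones, against 1.16 in aged and 1.84 in young other gated cells. Notch3 was at 2.94 CPM in aged and 2.23 in young top-score cells, against 1.61 in aged and 1.98 in young other gated cells, and Cspg4 at 2.63 CPM in aged and 13.7 in young top-score cells, against 5.93 in aged and 4.30 in young other gated cells. The part of such cells in the contractile values was not tested. No top-score cell (0 of 425) reached 1% of UMIs for the macrophage, neutrophil, T and NK cell, endothelial or keratinocyte list. None did so for the Schwann, skeletal muscle, adipocyte, erythroid or mast cell list. The gate had already limited Lyz2, Tyrobp and Fcer1g, which belong to the macrophage list. Few other gated cells passed 1% either: 2 aged and 12 young for the neutrophil list and 4 young for the erythroid list. None of them passed it for the remaining lists, so this bar says little of the purity of top-score cells. In the Schwann list Ncam1 (neural cell adhesion molecule) was at 133 CPM in aged and 173 in young top-score cells, against 43.1 in aged and 45.7 in young other gated cells, while the defining gene Sox10 was at 0 in top-score cells of both libraries. Krt5, Krt6a and Krt17 of the keratinocyte list and Emcn of the endothelial list were also at 0 in both. These genes were at most 0.665 CPM in other gated cells too, so their absence says little. Of the same lists, Krt10 was at 8.07 CPM in aged and 11.1 in young top-score cells, against 7.60 (aged) and 9.46 (young) in other gated cells. Egfl7 was at 3.32 CPM (aged) and 3.63 (young), against 1.35 (aged) and 0.972 (young). Pecam1 was at 12.6 CPM (aged) and 8.28 (young), against 15.1 (aged) and 10.5 (young).

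**Figure D1:**
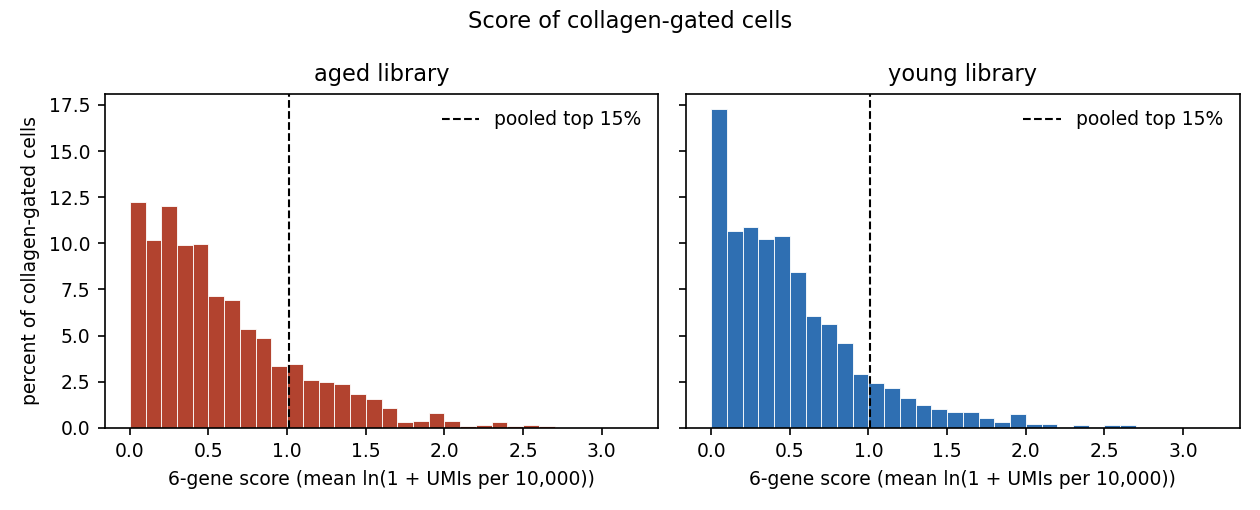
Percent of gated cells (vertical axis) per bin of the 6-gene score (horizontal axis) in the aged (left) and young (right) library, with the pooled cut for the top 15% as a dashed line. The bars thin out from low to high scores with no gap at the cut of 1.01, which 17.5% of aged and 12.6% of young gated cells passed.

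The score was a continuum, so the members are a range of it and not a separated cluster. Scores of gated cells had a median of 0.431 and a maximum of 3.13. The lowest member scored 1.0102 and the highest cell outside 1.0095, with 78 members within 0.1 above the cut and 91 other cells within 0.1 below it. All 6 genes had UMIs in 64 of 239 aged and 56 of 186 young top-score cells, and 5 of the 6 in a further 97 aged and 72 young ones. Acta2 and Crabp1 were both detected in 129 aged top-score cells (54.0%, 47.4% to 60.4%, exact Clopper-Pearson interval) and 94 young ones (50.5%, 43.1% to 57.9%), and neither was detected in 17 aged (7.11%) and 20 young (10.8%). Acta2 and Tagln, a second contractile gene that the score did not use, were both detected in 157 aged (65.7%) and 110 young (59.1%) top-score cells. Acta2 and Crabp1 helped to choose the cells, so their high summed levels are no check of the label, and single members reached the cut by different genes. The Spearman correlation of Acta2 with Crabp1 was -0.08 over 239 aged and -0.03 over 186 young top-score cells, against 0.34 and 0.28 over all 1362 aged and 1472 young gated cells, where cells share a library and vary in depth. Choosing cells by a mean of these genes itself lowers the correlation between them among the chosen cells.

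Top-score cells made up 17.5% of gated cells in the aged wound library (15.6% to 19.7%) and 12.6% in the young (11.0% to 14.4%). The ratio of shares was 1.39 (1.14 to 1.69), beside a ratio of 1.02 (0.951 to 1.10) for gated among all kept cells. This ratio depended on Acta2 being in the score: with the score taken over the other 5 genes it was 1.09 (0.894 to 1.32). Without the cells that also lay in the top 15% of a follicle-like mesenchyme list, described below, it was 1.75 (1.38 to 2.24).

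The score genes themselves, which chose the cells, differed as follows. Acta2 (ENSMUSG00000035783) stood at 557 CPM in aged and 498 in young top-score cells, against 43.6 in aged and 12.996 in young other gated cells. Per cell its median was 3.65 UMIs per 10000 in aged top-score cells and 0.797 in young ones, and the 10 richest cells held 21.9% of the aged and 43.0% of the young Acta2 UMIs. Acta2 was thus spread over more of the aged than of the young top-score cells. With each cell thinned to 5000 UMIs, Acta2 was detected in 67.1% of 231 aged and 45.1% of 184 young top-score cells, against 9.74% of aged and 3.68% of young other gated cells. In S100a8/S100a9-rich cells outside the gate it was detected in 16.6% of aged and 17.9% of young cells at the same depth, more than in the other gated cells, while Tagln was detected in 0.302% of those aged and 0.361% of those young cells and Tnn in 0.604% (aged) and 0.241% (young). The S100a8/S100a9-rich cells thus gave no background level for Acta2, and the source of their Acta2 UMIs was not tested. Unthinned, the shares were 88.3% in aged and 73.7% in young top-score cells at median depths of 65651 UMIs (aged) and 54849 (young), and the S100a8/S100a9-rich cells had medians of 4367 UMIs (aged) and 5961 (young). Crabp1 (ENSMUSG00000032291) was at 243 CPM in aged and 428 in young top-score cells, against 7.09 in aged and 64.3 in young other gated cells. Tnn was at 540 CPM in aged and 850 in young top-score cells, against 54.7 in aged and 86.0 in young other gated cells. Prss35 was at 93.7 CPM in aged and 132 in young top-score cells and below 10 in both groups of other gated cells. Lrrc15 (429 CPM in aged, 460 in young top-score cells) and Col12a1 (1616 CPM in aged, 1802 in young top-score cells) were the most evenly spread, detected in at least 99.2% of top-score cells of each library. When each gene was left out of the score in turn, between 364 and 406 of the 425 cells stayed in the top 15%. The left-out gene was 3.103 to 16.3 times higher in the cells chosen without it than in the rest. The score was set with earlier results of these data known, so this describes the rule and is no check of the group.

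**Figure D2:**
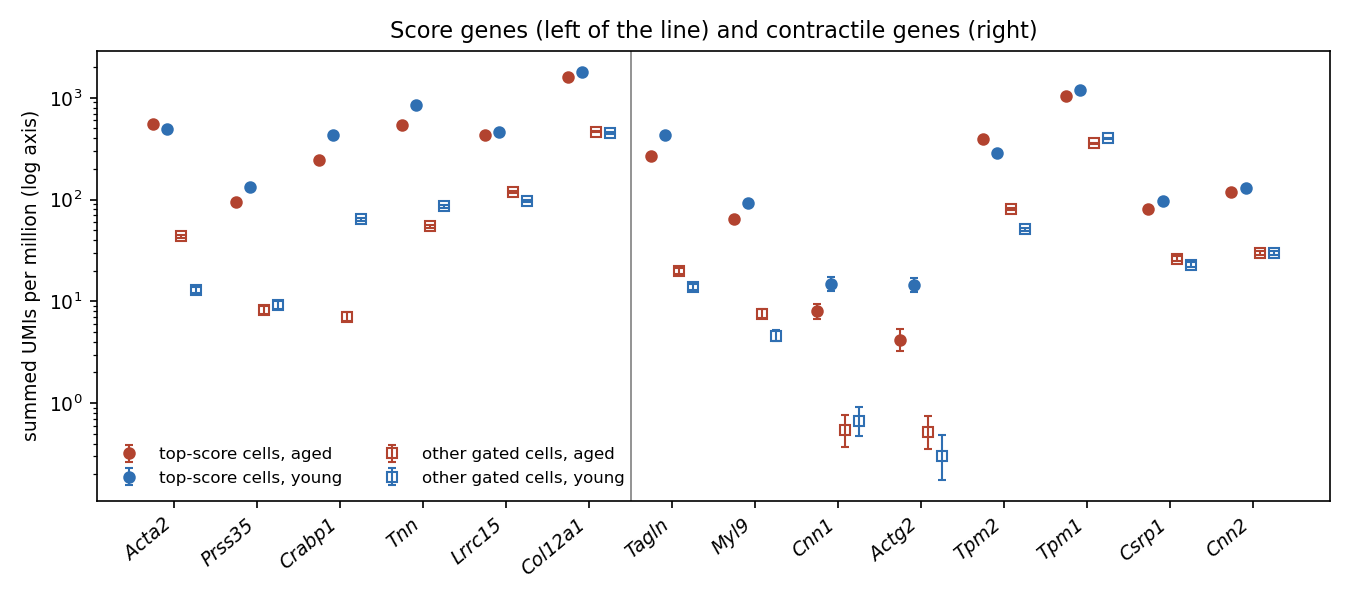
Summed UMIs in CPM on a log axis for the 6 score genes and 8 contractile genes in top-score cells (filled circles) and other gated cells (open squares) of the aged (red) and young (blue) library, with 95% Poisson intervals. Tagln lies at 267 CPM in aged and 433 in young top-score cells, above 19.9 CPM in aged and 13.7 in young other gated cells.

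Contractile genes that the score did not use were higher in top-score cells. Of 21 measured members of the contractile list, 14 were at least 1.5 times higher in top-score than in other gated cells in both libraries and none (0) was that much lower, where 9.43% of 13374 genes passed the same upward threshold and 8.30% the downward one. The list's median log2 ratio, on the scale of CPM + 5, was 0.79 in the aged and 0.84 in the young library, beside 0.09 in both for all genes. With TMM scaling, which shifts log2 ratios by -0.14 in the aged and -0.15 in the young library, 811 genes were higher and 1455 lower, against 1261 higher and 1110 lower with equal totals, and the contractile medians were 0.68 (aged) and 0.70 (young). Tagln (transgelin, an actin-bundling protein and early smooth muscle marker) was at 267 CPM in aged and 433 in young top-score cells, against 19.9 in aged and 13.7 in young other gated cells. Myl9, the regulatory light chain of contractile myosin, was at 64.7 CPM in aged and 93.3 in young top-score cells, against 7.58 in aged and 4.61 in young other gated cells. Both genes were thus several-fold higher in top-score cells of either library, and both stood higher in young than in aged top-score cells. Fhod3, a formin that nucleates actin filaments, was at 65.1 CPM in aged and 65.3 in young top-score cells, against 9.05 in aged and 5.59 in young other gated cells. The tropomyosins Tpm2 (397 CPM in aged and 284 in young top-score cells) and Tpm1 (1035 CPM in aged, 1182 in young top-score cells) coat actin filaments and were 4.93 and 2.88 times higher than in other gated cells in the aged library. The calponin Cnn2 was at 120 CPM in aged and 129 in young top-score cells, 4.03 (aged) and 4.36 (young) times the other gated cells, and Csrp1, a LIM-domain protein of actin filaments, was 3.09 times higher in the aged and 4.25 times in the young library. The smooth muscle genes Cnn1 and Actg2 were low in level but high in ratio. Cnn1 was at 8.01 CPM in aged and 14.7 in young top-score cells, 14.8 (aged) and 21.9 (young) times the other gated cells, and Actg2 (gamma smooth muscle actin) was at 4.19 in aged and 14.6 in young ones, 7.99 (aged) and 48.6 (young) times. Actn4 had ratios of 1.37 in the aged and 1.32 in the young library.

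The start regions of contractile genes are shown because SRF binds the CArG box, TEAD factors the MCAT element (CATTCC) and SMAD proteins the element CAGACA. RefSeq windows of 300 bases, from 250 before to 50 after the annotated start (GRCm38.p6), were found for 20 of the 23 genes made up of Acta2 and the contractile list, and both strands were searched. The CArG box was searched only in its strict form, CCWWWWWWGG, where W is A or T. This form was present in 3 of them (15%; Cnn2, Myl6 and Myl9), against 1.81% of 27025 genes with a window. Forms with a G or C in the middle were not counted. The Acta2 window holds such stretches, ccctatatgg and ccttgtttgg, left in small letters below, so it is not shown to lack a CArG box. MCAT was present in 9 (45.0%), among them Acta2, Mylk and Tpm1, against 16.6% of all genes, and CAGACA in 5 (25%), among them Acta2, against 23.6% of all genes. In Acta2 (chr19:34255324-34255623, minus strand) MCAT began 146 bases before the start and the SMAD element 236 bases before it, both read on the opposite strand. In Myl9 (chr2:156775214-156775513, plus strand) and Cnn2 (chr10:79988350-79988649, plus strand) a CArG box began 161 and 56 bases before the start. Each window is printed 5′ to 3′ on the gene's strand with these matches in capitals, and a match describes letters and not a bound site.
Acta2: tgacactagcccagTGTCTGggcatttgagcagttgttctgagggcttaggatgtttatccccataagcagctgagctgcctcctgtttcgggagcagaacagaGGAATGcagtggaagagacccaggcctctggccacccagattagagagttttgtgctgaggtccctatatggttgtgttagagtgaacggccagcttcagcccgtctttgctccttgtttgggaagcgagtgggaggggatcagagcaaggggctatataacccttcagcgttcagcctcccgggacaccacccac
Myl9: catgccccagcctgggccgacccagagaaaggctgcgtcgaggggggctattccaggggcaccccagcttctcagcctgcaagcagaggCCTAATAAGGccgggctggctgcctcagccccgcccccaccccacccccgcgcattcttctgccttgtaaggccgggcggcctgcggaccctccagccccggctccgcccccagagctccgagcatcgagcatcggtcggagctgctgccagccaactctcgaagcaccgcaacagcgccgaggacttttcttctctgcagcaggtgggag
Cnn2: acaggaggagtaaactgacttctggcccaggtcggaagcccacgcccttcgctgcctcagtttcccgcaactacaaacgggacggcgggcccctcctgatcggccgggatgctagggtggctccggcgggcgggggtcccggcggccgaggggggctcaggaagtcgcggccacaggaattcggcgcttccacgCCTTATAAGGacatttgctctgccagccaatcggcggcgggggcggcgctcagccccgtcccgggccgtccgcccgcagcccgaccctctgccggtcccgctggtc

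Genes that carry tension from the matrix to the nucleus differed less than the contractile genes. The adhesion and mechanosensing list had medians of 0.15 (aged) and 0.29 (young), with 3 of 22 members past 1.5-fold higher in both libraries: Flna (filamin A, 233 CPM in aged and 211 in young top-score cells), Palld (palladin, 223 CPM in aged and 272 in young top-score cells) and Ilk (integrin-linked kinase, 70.3 CPM in aged and 63.3 in young top-score cells). The 3 members past the downward threshold were Pxn, Lims2 and Ankrd1. Ankrd1, a textbook YAP target, was at 5.70 CPM in aged and 11.5 in young top-score cells, against 32.5 in aged and 33.7 in young other gated cells. Regulators of SRF and YAP had medians of 0.07 (aged) and 0.09 (young), and -0.03 (aged) and -0.05 (young) with TMM scaling. Tead2, a partner of YAP, was 2.13 times higher in aged and 1.74 times in young top-score cells, and the lowest ratios were those of Fhl1 (0.582 in aged, 0.671 in young) and Tead1 (0.750 in aged, 0.723 in young). Srf itself was at 6.64 CPM in aged and 6.80 in young top-score cells, and Twist2, a dermal fibroblast transcription factor, at 265 CPM in aged and 304 in young top-score cells, 1.67 (aged) and 1.56 (young) times the other gated cells.

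Matrix genes differed one by one, and the counts below stand beside 9.43% of all genes higher and 8.30% lower. The gate collagens did not set the top-score cells apart, with Col1a1 at 18467 CPM in aged and 19325 in young top-score cells, against 16574 in aged and 20286 in young other gated cells. Col7a1, the anchoring fibril collagen of the dermal-epidermal junction, was at 44.4 CPM in aged and 80.5 in young top-score cells, against 2.82 in aged and 7.20 in young other gated cells. The basement membrane collagen Col4a1 was lower, at 44.0 CPM in aged and 133 in young top-score cells, against 231 in aged and 215 in young other gated cells. The other fibrillar collagens had medians of 0.42 (aged) and 0.54 (young), with 2 of 7 (Col24a1 and Col27a1) past the threshold in both libraries. The non-fibrillar collagens had medians of 0.04 (aged) and 0.55 (young), with 3 of 14 higher and 3 lower; Col23a1 was 3.46 times higher in the aged and 2.98 times in the young library, and Col14a1, a fibril-associated collagen, was at 0.273 times in the aged and 0.467 in the young library. Enzymes of collagen maturation had medians of 0.32 (aged) and 0.37 (young), with 5 of 24 higher and 2 lower. The collagen cross-linking oxidase Loxl2 was at 1127 CPM in aged and 958 in young top-score cells, against 686 in aged and 547 in young other gated cells, while Lox was at 1195 CPM in aged and 869 in young top-score cells, against 1184 in aged and 892 in young other gated cells. Adamts14, which trims procollagen, had the highest ratios (2.24 in aged, 1.91 in young) and Pcolce2, a procollagen processing enhancer, the lowest (0.195 in aged, 0.238 in young).

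The provisional matrix list split, with 8 of 21 members higher and 6 lower in both libraries. Spp1 (osteopontin) was at 1281 CPM in aged and 516 in young top-score cells, against 286 in aged and 76.9 in young other gated cells. The 10 richest cells held 52.6% of its aged and 55.7% of its young UMIs, and cells outside the gate carried 2153 CPM (aged) and 1808 CPM (young). Tnc (tenascin-C) was at 4717 CPM in aged and 3774 in young top-score cells, against 2242 in aged and 2362 in young other gated cells. Postn (periostin) was at 2507 CPM in aged and 3973 in young top-score cells, against 1518 in aged and 1943 in young other gated cells. Ltbp2, a microfibril protein, and Tgfbi were also higher in both libraries, while Sparcl1 (0.0514 times in aged, 0.210 in young), Smoc2, Thbs3, Thbs4, Ccn5 and Comp were lower. Among matrix proteases 4 of 22 were higher and 4 lower: the collagenase Mmp13 was at 53.6 CPM in aged and 113 in young top-score cells, against 14.2 in aged and 27.6 in young other gated cells, with 81.0% of aged and 86.2% of young UMIs in 10 cells, and the stromelysin Mmp3 was at 503 CPM in aged and 964 in young top-score cells, against 1095 in aged and 2384 in young other gated cells. Fap, a protease used as a marker of activated fibroblasts, was lower, at 0.268 times the other gated cells in the aged and 0.406 in the young library.

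Signalling genes gave no common direction. The TGF-beta and activin list had medians of -0.18 (aged) and -0.12 (young), with none (0 of 21) higher and 4 lower in both libraries. The receptor Tgfbr2 was at 210 CPM in aged and 205 in young top-score cells, against 323 in aged and 379 in young other gated cells. Inhba, the activin A subunit, was at 2068 CPM in aged and 1331 in young top-score cells, against 1008 in aged and 1013 in young other gated cells. Of the Wnt and BMP list (medians -0.34 in aged, -0.16 in young), 4 of 19 were higher and 6 lower: the ligand Wnt5a was at 26.3 CPM in aged and 45.7 in young top-score cells, against 8.49 in aged and 9.26 in young other gated cells, and the secreted Wnt inhibitor Sfrp4 at 18.3 CPM in aged and 16.9 in young top-score cells, against 115 in aged and 120 in young other gated cells. Grem1, a secreted BMP antagonist, was 3.49 times higher in the aged and 3.25 times in the young library. Retinoid handling genes, relevant to Crabp1, had medians of -0.14 (aged) and 0.14 (young). Crabp2 was at 72.1 CPM in aged and 91.6 in young top-score cells, 1.79 (aged) and 2.02 (young) times the other gated cells, and the retinaldehyde dehydrogenase Aldh1a1 at 2.57 CPM in aged and 5.21 in young top-score cells, 0.136 (aged) and 0.248 (young) times the other gated cells.

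More top-score than other gated cells carried cell cycle RNA. Of 24 proliferation genes, 22 were higher in both libraries and none (0) lower, with medians of 0.79 (aged) and 0.77 (young). Mki67, a marker of cycling cells, was at 129 CPM in aged and 73.4 in young top-score cells, against 51.6 in aged and 31.0 in young other gated cells, with 34.9% of the aged and 65.4% of the young top-score UMIs in 10 cells. At 5000 UMIs per cell it was detected in 25.1% of aged and 14.1% of young top-score cells, against 8.74% of aged and 5.04% of young other gated cells; unthinned shares were 47.3% in aged and 30.1% in young top-score cells, and S100a8/S100a9-rich cells gave 5.14% (aged) and 4.09% (young). Top2a (topoisomerase) and Birc5 (survivin), both active in dividing cells, had ratios of 2.49 and 2.44 in the aged and 2.67 and 3.18 in the young library. Of 19 glycolysis and hypoxia genes, 10 were higher and 2 (Hk2 and Adm) lower, with medians of 0.68 (aged) and 0.46 (young). Eno1 (enolase) was at 312 CPM in aged and 211 in young top-score cells, against 154 in aged and 98.1 in young other gated cells. Secretory pathway genes had a median of 0.41 in both libraries, with 2 of 21 (Sec61b and Kdelr3) past the threshold, a share close to the 9.43% of all genes.

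**Figure D3:**
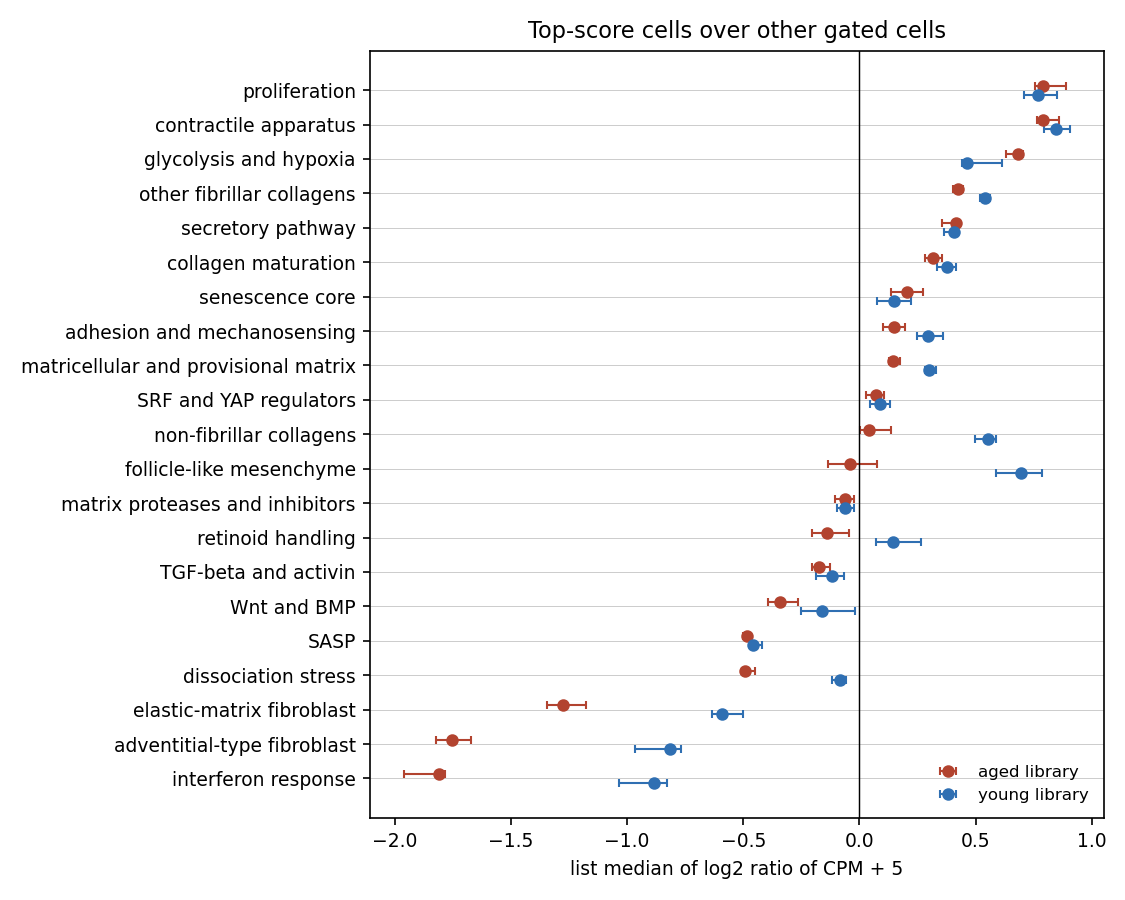
Median log2 ratio (CPM + 5) of top-score over other gated cells for 21 gene lists in the aged (red) and young (blue) library, with intervals from 200 Poisson redraws of the counts. Contractile and proliferation lists lie near 0.8 in both libraries, and the interferon and adventitial-type lists at -1.81 and -1.75 in the aged library.

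The adventitial-type, interferon and elastic-matrix programmes were low in top-score cells. All 12 adventitial-type genes were at least 1.5 times lower in both libraries (medians -1.75 in aged, -0.82 in young). Pi16, a marker of adventitial progenitor fibroblasts, was at 41.0 CPM in aged and 30.2 in young top-score cells, against 451 in aged and 364 in young other gated cells. Of the interferon response list, 17 of 21 were lower and none (0) higher (medians -1.81 in aged, -0.88 in young). Ifit1, an interferon-induced antiviral gene, was at 6.57 CPM in aged and 5.31 in young top-score cells, against 359 in aged and 62.7 in young other gated cells. The elastic-matrix list had 6 of 12 lower (medians -1.28 in aged, -0.59 in young), and its complement gene C7 was at 0.376 CPM in aged and 0.838 in young top-score cells, against 31.7 in aged and 34.4 in young other gated cells. The chemokine Cxcl13 was the lowest of all named genes relative to the other gated cells, at 2.44 CPM in aged and 1.49 in young top-score cells, against 268 in aged and 169 in young other gated cells. Further genes chosen for the lowest ratios were the complement genes C3 and C4b, the selenium carrier Selenop, the ferritin receptor Scara5, Lbp (lipopolysaccharide-binding protein) and Clec3b (tetranectin), each at most 0.143 times the other gated cells in both libraries. Genes chosen for the highest ratios that have not been named were Glipr1, Fabp5, Hs6st2, Ptk7, Rflnb, Spon1 and Pappa, 3.13 to 6.83 times the other gated cells. Over the whole gated population the score's Spearman correlation with the interferon list's share of UMIs was -0.57 over 1362 aged and -0.27 over 1472 young cells, and with the contractile share 0.74 in the aged and 0.64 in the young library.

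Senescence genes were mixed. Cdkn1a (p21, which arrests the cell cycle) was at 423 CPM in aged and 531 in young top-score cells, against 292 in aged and 344 in young other gated cells. Cdkn2a (p16 and p19ARF) was at 12.96 CPM in aged and 17.9 in young top-score cells, against 4.53 in aged and 17.1 in young other gated cells. The 10 richest cells held 77.3% of aged and 63.0% of young Cdkn2a UMIs, and without them its level was 3.12 CPM in aged and 6.95 in young top-score cells. At 5000 UMIs Cdkn2a was detected in 8 of 231 aged (3.46%, 1.51% to 6.71%) and 14 of 184 young top-score cells (7.61%, 4.22% to 12.4%), against 2.18% of aged and 5.12% of young other gated cells. It was detected in 0 of 331 aged S100a8/S100a9-rich cells and 1 of 831 young ones. For the count of 0, a limit set at 3 cells allows a share of up to 0.906%, and the upper Clopper-Pearson bound was 1.11%. Unthinned, the shares were 19.2% in aged and 29.6% in young top-score cells. The core list had medians of 0.21 (aged) and 0.15 (young), with 3 of 16 higher (Cdkn2b, Trp53 and Hmgb1) and 1 lower (Cdkn1c). The secretory list of senescence-associated factors (SASP) had medians of -0.48 (aged) and -0.46 (young), with 3 of 24 higher (Il1a, Il11 and Pdgfa) and 9 lower. The inflammatory cytokine Il6 was at 826 CPM in aged and 570 in young top-score cells, against 1621 in aged and 1408 in young other gated cells, and the fibrogenic cytokine Il11 at 373 CPM in aged and 254 in young top-score cells, against 142 in aged and 160 in young other gated cells, with 43.4% of the aged and 74.1% of the young top-score UMIs in 10 cells. The chemokine Ccl11 had the lowest ratios, 0.127 in the aged and 0.167 in the young library. Dissociation stress genes had medians of -0.49 (aged) and -0.08 (young), with none (0 of 16) past the threshold in both libraries.

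A larger share of young than of aged top-score cells lay high on a follicle-like mesenchyme list. Of aged top-score cells, 47 of 239 (19.7%, 14.8% to 25.3%) also lay in the top 15% of gated cells by a 12-gene follicle-like mesenchyme list, against 76 of 186 young ones (40.9%, 33.7% to 48.3%). In the other gated cells the shares were 10.1% (aged) and 14.7% (young). Coch (cochlin) and Wif1 (a Wnt inhibitor) are known from hair follicle mesenchyme, and Igfbp2 binds insulin-like growth factors. Coch was at 0.0626 CPM in aged and 32.0 in young top-score cells, Wif1 at 0.313 in aged and 31.2 in young ones, and Igfbp2 at 1.25 in aged and 93.6 in young ones. The 10 richest young cells held 98.55% of the young Coch UMIs, 88.1% of Wif1 and 91.1% of Igfbp2. Among the cells in that top 15%, Coch had 0 UMIs in the 47 aged cells, against 342 UMIs in 13 of the 76 young ones, and Wif1 had 2 UMIs in 2 aged cells, against 335 UMIs in 15 young ones, so these genes did not mark the aged cells. Coch rested on 1 UMI in aged top-score cells, a ratio of 0.00195 (4.93e-05 to 0.0110). The follicle-like list as a whole had medians of -0.04 (aged) and 0.70 (young) in top-score over other gated cells, with 4 of 8 measured genes higher in both.

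Cells inside and outside the follicle-list top, a division made after the values were seen, differed within each library. Crabp1 was at 728 CPM in the 47 aged and 750 in the 76 young top-score cells inside it, against 136 in the 192 aged and 230 in the 110 young ones outside. Prss35 was at 329 CPM in aged and 237 in young cells inside, against 41.8 in aged and 67.6 in young cells outside. Acta2 leaned the other way, with 470 CPM in aged and 383 in young cells inside, against 576 in aged and 568 in young cells outside. Mmp13, Col7a1, Ptk7 and Cdkn2a were also higher inside in both libraries; Cdkn2a was at 34.7 CPM in aged and 29.2 in young cells inside, against 8.17 in aged and 11.0 in young cells outside. Timp1, an inhibitor of matrix proteases, was higher outside, at 2122 CPM in aged and 929 in young cells inside, against 5058 in aged and 2650 in young cells outside. Of the other programmes scored in the same way, 100 aged (41.8%) and 54 young (29.0%) top-score cells lay in the proliferation top 15%, 4 aged (1.67%) and 19 young (10.2%) in the elastic-matrix top, 6 aged (2.51%) and 3 young (1.61%) in the interferon top, and 1 of each library in the adventitial-type top.

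**Figure D4:**
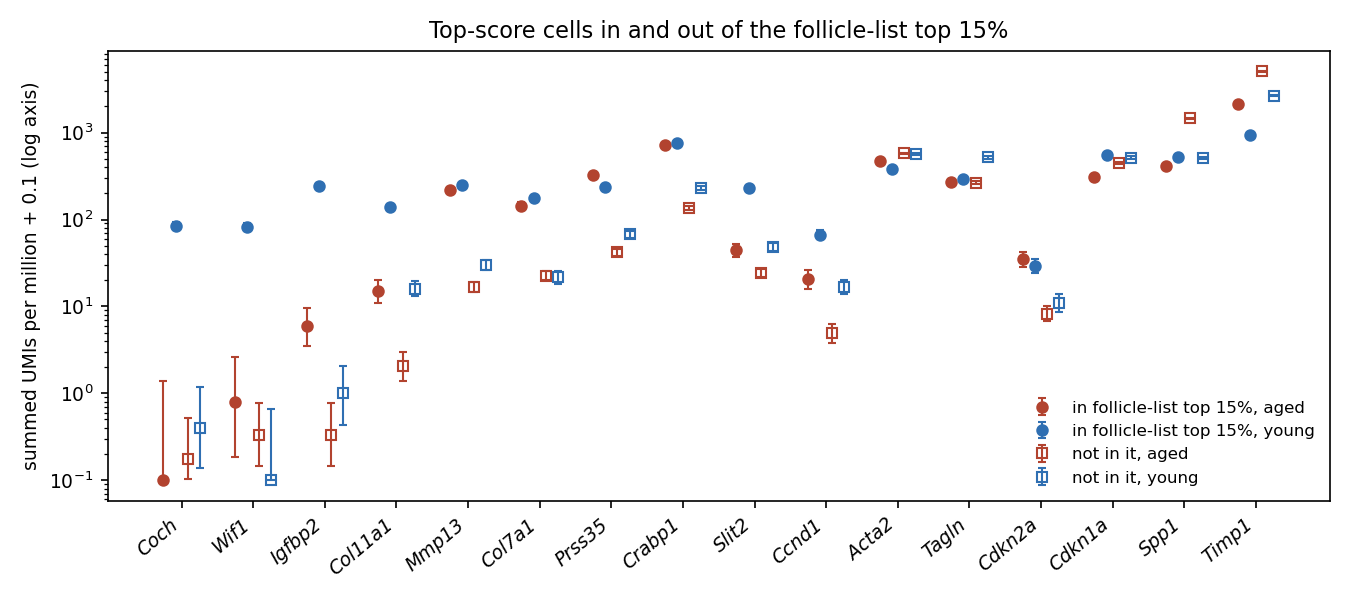
Summed UMIs in CPM + 0.1 on a log axis for 16 genes in top-score cells inside (filled circles) and outside (open squares) the top 15% of the follicle-like list, aged in red and young in blue, with 95% Poisson intervals. Crabp1 lies at 728 CPM in aged and 750 in young cells inside, while Igfbp2 is at 5.90 CPM in aged and 245 in young cells inside.

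Within top-score cells, aged and young wounds differed in many genes, with no replicate of either. Of 11790 genes with at least 50 UMIs, 8.78% were at least 1.5 times higher in aged than in young top-score cells and 8.50% that much lower. In the other gated cells 9.11% of 15078 genes were higher and 6.57% lower. The median log2 ratio of all genes was 0.06 in top-score cells and 0.04 in other gated cells. Without the follicle-list top cells of both ages, the count of lower genes was 628, against 1002 with all cells, and the count of higher genes 1487, against 1035. The counts for the lists below are read against these shares.

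The contractile list had a median near 0 between the ages, at -0.06 (-0.11 to 0.00), beside 0.06 in the other gated cells, and none (0 of 21) of its genes was 1.5 times higher in aged top-score cells and 4 were that much lower. The median changed sign with the cell rule, at 0.03 for the top 20% and 0.06 for the top 15% of each library on its own. The 4 lower genes were Tagln, with an aged over young ratio of 0.616 (0.591 to 0.642), Cnn1 (0.545), Actg2 (0.287) and Mylk, the kinase of myosin light chain (0.602). In the other gated cells the ratios were 1.45 for Tagln and 0.808 for Cnn1. Myl9 was at 0.693 (0.635 to 0.757) in top-score cells, against 1.64 in other gated cells. Tpm2 was at 1.40 (1.34 to 1.46) in top-score cells and 1.58 in other gated cells. The 10 richest young cells held 56.2% of young Tagln UMIs, and Tagln was detected in 166 of 239 aged and 137 of 186 young top-score cells.

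The interferon list differed with age in the other gated cells and little in top-score cells, a difference that was not tested. Its median aged over young log2 ratio was 0.05 (-0.02 to 0.17) in top-score cells, with 2 of 20 higher and 1 lower, against 1.08 in the other gated cells, with 18 of 21 higher and none (0) lower. For Ifit1 the ratio was 1.24 (0.889 to 1.74) in top-score cells and 5.73 in other gated cells. The 10 richest top-score cells held 87.6% of its aged and 98.2% of its young UMIs. Without them its level was 0.848 CPM in aged and 0.0987 in young top-score cells, on few UMIs, so its ratio rested on those cells. Without the 10 richest cells of each gene the list median was 0.25. The chemokine Cxcl10 was at 117 CPM in aged and 153 in young top-score cells, a ratio of 0.766, and at 974 CPM in aged and 313 in young other gated cells, a ratio of 3.11. Ifit1 was detected at 5000 UMIs in 2.16% of aged and 2.72% of young top-score cells, a share at or below that of the S100a8/S100a9-rich cells (2.42% aged, 5.17% young), and in 37.1% of aged and 12.9% of young other gated cells.

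Proliferation genes were higher in aged top-score cells, with a median of 0.51 (0.42 to 0.55), 11 of 24 past 1.5-fold and 1 lower, and a similar 0.39 in the other gated cells. Plk1, a mitotic kinase, had a ratio of 2.73 (1.99 to 3.81) and Cdc20, an activator of mitotic exit, 2.66 (2.00 to 3.58), with 3.05 for Plk1 and 2.58 for Cdc20 in the other gated cells. Ccnd1 (cyclin D1, which acts at entry into the cycle) was the gene below the threshold, at 7.64 CPM in aged and 35.6 in young top-score cells, a ratio of 0.214 (0.173 to 0.263). It was lower in aged cells both inside (20.5 CPM aged, 66.6 young) and outside the follicle-list top (4.81 CPM aged, 16.7 young). Glycolysis genes had a median of 0.20, secretory pathway genes 0.14 and collagen maturation genes 0.15, all close to their other gated values of 0.09, 0.16 and 0.20.

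The senescence core had a median of -0.12 (-0.21 to -0.04) in top-score cells and -0.18 in other gated cells, with 1 of 16 higher and 4 lower in aged top-score cells. Without the follicle-list top cells this median was 0.02. Cdkn1a had an aged over young ratio of 0.797 (0.769 to 0.825) in top-score cells and 0.849 in other gated cells. Cdkn2a had a ratio of 0.725 (0.593 to 0.887) in top-score cells and 0.265 in other gated cells, and on either side of the follicle-list division its aged and young intervals overlapped, at 28.2 to 42.2 CPM (aged) and 24.2 to 34.9 (young) inside and 6.70 to 9.87 (aged) and 8.59 to 13.8 (young) outside. Cdkn1c (p57) was at 31.7 CPM in aged and 95.4 in young top-score cells, a ratio of 0.333, and Lmnb1 (lamin B1, known to be lost in senescence) at 33.3 CPM in aged and 20.6 in young top-score cells, a ratio of 1.62. The SASP list had a median of -0.06 (-0.10 to 0.03), with 3 of 24 higher (Lif, Areg and Il1b) and 2 lower (Il1a and Igfbp5). Lif, a cytokine of the interleukin-6 family, was at 231 CPM in aged and 139 in young top-score cells (ratio 1.66), and the ratio in other gated cells was 1.06. Areg (amphiregulin, a ligand of the EGF receptor) had a ratio of 1.71 in top-score cells, with 52.2% of aged and 66.6% of young UMIs in 10 cells, and 0.998 in other gated cells.

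Matrix and its regulators diverged by gene. Timp1 was at 4529 CPM in aged and 1996 in young top-score cells, a ratio of 2.27 (2.23 to 2.30), beside 1.72 in the other gated cells, and it was higher in aged cells both inside and outside the follicle-list top. The urokinase gene Plau was at 180 CPM in aged and 72.8 in young top-score cells (ratio 2.47, other gated cells 1.84). The metalloprotease Adam12 was at 986 CPM in aged and 516 in young top-score cells (ratio 1.91, other gated cells 1.25) and Inhba at a ratio of 1.55, with 0.996 in other gated cells. Postn was lower, at 2507 CPM in aged and 3973 in young top-score cells (ratio 0.631, other gated cells 0.781), as was Aspn (asporin) at 802 CPM in aged and 1349 in young top-score cells (ratio 0.595, other gated cells 1.01). Inside the follicle-list top Postn was near equal, at 4598 CPM in aged and 4630 in young cells, against 2047 (aged) and 3570 (young) outside. Aspn was at 1335 CPM in aged and 1484 in young cells inside, against 685 (aged) and 1266 (young) outside. Of 14 non-fibrillar collagens 8 were lower and none (0) higher in aged top-score cells (median -0.60), against 3 lower in the other gated cells (median -0.09). Col4a1 had a ratio of 0.330 and Col4a2 of 0.307, with 1.07 and 0.918 in the other gated cells. The Col4a1 difference lay mostly inside the follicle-list top (25.7 CPM aged, 248 young). Outside it Col4a1 was at 48.0 CPM in aged and 62.8 in young cells. The fibrillar collagen Col11a1 was at 4.32 CPM in aged and 63.3 in young top-score cells, a ratio of 0.0682, with 1.29 in the other gated cells; 10 cells held 87.0% of its aged and 62.2% of its young UMIs in top-score cells. The other lists had medians of 0.08 for provisional matrix, 0.05 for the other fibrillar collagens, 0.01 for adventitial-type genes, -0.02 for SRF and YAP regulators, -0.11 for TGF-beta and activin, -0.15 for matrix proteases, -0.21 for retinoid handling, -0.26 for adhesion (lowest Itga11, 0.473, and Ccn1, 0.491), -0.38 for Wnt and BMP (10 of 19 lower, 1 higher, with Grem1 at 0.200), -0.84 for the elastic-matrix list (8 of 11 lower, with Eln, elastin, at 0.293) and -1.87 for the follicle-like list (7 of 8 lower). Rdh10, which oxidises retinol, stood apart in its list at 228 CPM in aged and 87.8 in young top-score cells (ratio 2.60, other gated cells 1.43).

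**Figure D5:**
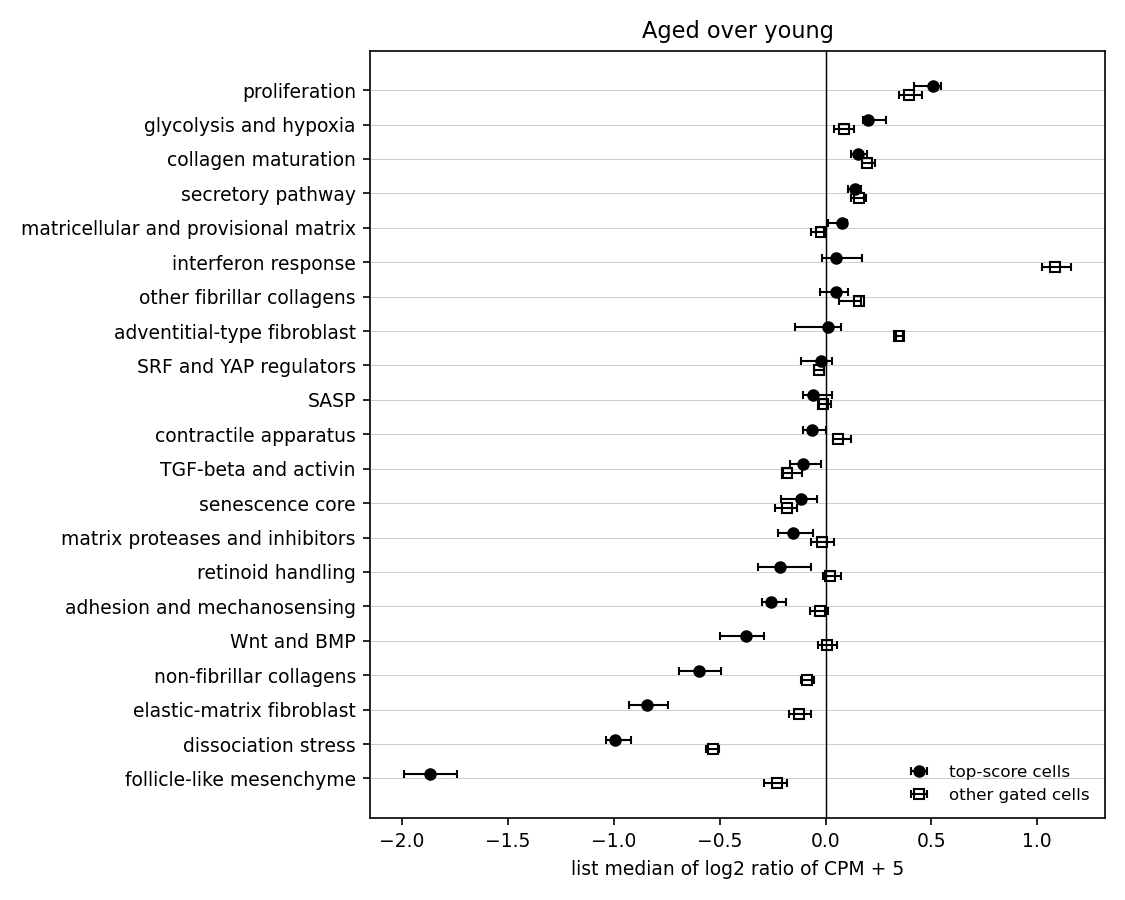
Median log2 ratio (CPM + 5) of aged over young for 21 gene lists in top-score cells (filled circles) and other gated cells (open squares), with intervals from Poisson redraws. The interferon list lies at 0.05 in top-score and 1.08 in other gated cells, and the follicle-like list at -1.87 in top-score cells.

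The genes with the largest ratios were taken from those whose interval lay beyond 1.5-fold and whose 10 richest cells held under 50% of the UMIs in the library where the gene was higher: 144 higher and 177 lower in aged top-score cells. Among the highest were Igsf9b, a synaptic adhesion molecule (19.8 CPM in aged and 4.47 in young top-score cells, ratio 4.43, 3.26 to 6.13), Trp53rkb, Cracd, Cadps2, Dusp22, the stress-induced pseudokinase Trib3, the membrane repair gene Dysf, the RNA-binding protein gene Igf2bp3, Mgarp, Taco1 and Cdkn3, with ratios between 2.94 and 4.43. All of these were also higher in aged other gated cells, at ratios of 1.37 to 2.65. Taco1, a translational activator of a mitochondrial gene, had the most UMIs of them, at 69.3 CPM in aged and 23.4 in young top-score cells. The lowest were Draxin, Pawr, Hspa1b, Ccnd1, Adam33, Col18a1, Slit2, Fmo1, Prdm1, Ninl, Ace and Lpl, with ratios between 0.196 and 0.296, and all were also lower in aged other gated cells, at ratios of 0.183 to 0.796. Slit2, a guidance ligand, was at 27.8 CPM in aged and 118 in young top-score cells (ratio 0.235, other gated cells 0.305). The Slit2 difference was larger inside the follicle-list top (44.4 CPM aged, 233 young) than outside it (24.1 CPM aged, 48.2 young). Prdm1 (Blimp1, a transcriptional repressor) was at 15.4 CPM in aged and 56.4 in young top-score cells (ratio 0.273, other gated cells 0.222). Col18a1 was at 21.2 CPM in aged and 90.4 in young top-score cells (ratio 0.235, other gated cells 0.753). Hspa1b, a heat shock gene, belongs to the dissociation stress list, of which 10 of 16 genes were lower and none (0) higher in aged top-score cells (median -0.997), and 8 of 16 lower in aged other gated cells (median -0.53). The part of digestion stress in the other age differences was not tested.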

How the data were processed

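Droplet 3' single-cell RNA-seq of day 6 wound cells gave 1 library per age. The authors deposited UMI counts without normalization. The header of each matrix gives Cell Ranger 8.0.1 as the counter. Cell Ranger 9.0, STAR, Seurat 4 and the build GRCm38 (mm10) are listed per the submitters' processing notes, and the difference in version was not resolved. From these counts, barcodes with at least 500 UMIs, at least 200 genes and under 15% mitochondrial UMIs were kept. Doublets were not removed, since Scrublet (scanpy 1.11.5) served only as an alternative.

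UMIs were summed per gene, library and cell set and scaled to CPM. Log2 ratios used CPM + 5. Called higher or lower means a ratio of 1.5 or more in that direction, for genes with at least 50 UMIs or list members with at least 20. Intervals were Clopper-Pearson for shares, Poisson for CPM, conditional binomial for ratios and 200 Poisson redraws for list medians. The ratio intervals were tested on simulated Poisson counts, the counting model they assume. That simulation held no variation between cells, mice or libraries, so it checked the calculation and not the fit to these data. With 1 library per age no p-value was computed.

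Named genes were the score and gate genes, the 15 highest and 10 lowest ratios of top-score over other gated cells, the 12 highest and 12 lowest aged over young ratios that met the conditions in the text, and the extreme members of the lists. Further list members were named after their values were seen, for their known roles. The members, the 21 lists and the 13 marker lists were chosen with earlier results of these data known. Ddit3 and Aldoa, each on 2 rows of the feature table, were left out, and 1 gene that met the rule is not reported here. Alternatives included TMM scaling (edgeR 4.0.16). Promoters came from RefSeq on GRCm38.p6. Python 3.11.15, numpy 2.4.6, scipy 1.17.1 and pandas 2.3.3 were used.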

Additional observations from a re-analysis of the deposited data

Results flagged for a closer look

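Il1b and Itgb8 had aged over young ratios in opposite directions in top-score and other gated cells, and this difference was not tested. Il1b, an inflammatory cytokine, had a ratio of 1.52 in top-score cells (51.8 CPM aged, 34.2 young) and 0.572 in other gated cells (43.7 CPM aged, 76.3 young). The 10 richest top-score cells held 90.0% of its aged and 69.2% of its young UMIs, and cells outside the gate carried 6575 CPM (aged) and 9220 CPM (young). Free RNA was not measured, and the part of RNA from cells outside the gate in the ratio was not tested. Itgb8, an integrin subunit that activates TGF-beta, had a ratio of 3.07 (1.71 to 5.94) in top-score cells (4.01 CPM aged, 1.30 young) and 0.529 in other gated cells (1.23 CPM aged, 2.32 young), and 10 cells held 79.7% of its aged and 92.9% of its young UMIs in top-score cells.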

How the results depend on the processing

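No paired analysis was possible because each age had 1 library. The ratio of shares, 1.39, was 1.09 with the score taken without Acta2 and 1.75 without the cells in the follicle-list top, an alternative chosen after seeing the data; in the other 5 alternatives run it lay between 1.24 and 1.53. Genes higher in top-score cells in both libraries numbered 1261, against 811 with TMM scaling and 2362 at a minimum of 1 UMI, and genes lower 1110, against 3617 at 1 UMI. Aged over young, 1035 were higher, against 4997 at 1 UMI, and 1002 lower, against 4044 at 1 UMI, 628 without follicle-list cells and 565 without the 10 richest cells of each gene. The minimum of 1 UMI admits many more genes by construction. For the other settings the cause was not tested.

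Aged over young medians in top-score cells moved as follows. The contractile median (-0.06) was -0.11 for the top 10%, 0.027 for the top 20%, 0.042 without Acta2, -0.12 with TMM, -0.12 with median-of-ratios scaling and 0.059 with the top 15% of each library. The SASP median (-0.06) was 0.041 without Acta2, -0.11 with TMM, -0.11 with median-of-ratios, 0.14 without follicle-list cells and 0.11 without the 10 richest cells. The interferon median (0.05) was -0.034 with the top 15% of each library and 0.25 without the 10 richest cells. The proliferation median (0.51) was 0.36 for the top 10%, 0.61 with thinned scores, 0.55 at a pseudocount of 1, 0.60 without follicle-list cells and 0.79 without the 10 richest cells. The senescence core (-0.12) was 0.018 without follicle-list cells. The provisional matrix median (0.08) was -0.097 for the top 20%, -0.044 with thinned scores, -0.063 without Acta2, -0.039 without follicle-list cells and -0.061 with the top 15% of each library.

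Some medians of top-score over other gated cells turned sign. SRF and YAP regulators were at -0.030 with TMM and -0.030 with median-of-ratios in the aged library, and at -0.050 with TMM, -0.033 with median-of-ratios and -0.0096 without follicle-list cells in the young. In the aged library non-fibrillar collagens were at -0.024 without the top Scrublet scores, -0.011 as a mean over cells and -0.014 without follicle-list cells. Without those cells, provisional matrix was at -0.0018 (aged) and retinoid handling at -0.0042 (young). Retinoid handling was at 0.065 without Acta2 (aged), proteases at 0.0099 for the top 10% (aged) and Wnt and BMP at 0.046 at 1 UMI (young). Depth limits genes of a few UMIs, and no value has a replicate check.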
